A study of Mus musculus with 25 samples.

Results

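The mir-130 and mir-301 family of mouse microRNA hairpins comprises mir-130a, mir-130b, mir-301a and mir-301b, and its levels were measured in blood at 5 ages. The 4 hairpins were taken by name from a table of 1193 hairpins, of which 865 had at least 1 count. They are listed there as mmu-mir-130a, mmu-mir-130b, mmu-mir-301a and mmu-mir-301b. The small RNA libraries came from blood of male C57BL/6 mice, a standard inbred strain, aged 2, 9, 15, 24 or 30 months. There were 5 libraries per age, 1 per numbered mouse, and no treatment or altered allele is named for any group, so the groups differ by age alone as far as the labels go. All 4 members had counts in each of the 25 libraries and passed the filter on low counts.

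MicroRNAs are short RNAs cut from hairpin precursors. They guide Argonaute proteins to messenger RNAs, mainly through the seed, bases 2 to 8 of the mature strand. Members of this family are known from blood formation, where miR-130a is present in progenitor cells and declines as megakaryocytes mature, and from the vessel wall, where miR-130a acts on homeobox genes that restrain angiogenesis. miR-301a is known as an activator of NF-kappaB signalling through the repressor Nkrf, and miR-130b as a repressor of Pparg in fat cell differentiation.

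The mature 3p strands of the family are miR-130a-3p, miR-130b-3p, miR-301a-3p and miR-301b-3p. The sequences below, from RefSeq on GRCm38.p6, show what makes these microRNAs a family, with the seed in capitals.
miR-130a-3p: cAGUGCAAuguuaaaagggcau
miR-130b-3p: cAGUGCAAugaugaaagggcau
miR-301a-3p: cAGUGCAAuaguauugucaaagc
The 3 strands printed share the seed AGUGCAA and their first 9 bases. Counted from the 5′ end, miR-130a-3p and miR-130b-3p differed at 2 of 22 positions, by U11A and A13G. miR-130a-3p and miR-301a-3p differed at 10 of 22. The motif AGUGCAA occurred in 12 of 1005 RefSeq hairpins, or 1.19%, read on the hairpin strand, and all 4 members were among them.

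The 5p strands of both mir-301 hairpins show how close these hairpins are in sequence, which bears on how reads were assigned.
miR-301a-5p: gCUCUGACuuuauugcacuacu
miR-301b-5p: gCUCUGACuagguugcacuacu
They shared the seed CUCUGAC and differed at 3 of 22 positions, by U10A, U11G and A12G. The deposited table gives 1 count per hairpin without separating the strands. Which reads were given to mir-301a and which to mir-301b is uncertain, because the mismatches and multiple hits allowed in counting remain unknown: no rule for them is stated in the labels. The same holds for mir-130a and mir-130b.

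By position in GRCm38.p6, mir-130a lies on chromosome 2 (84741115 to 84741178, minus strand), between genes, with the GENCODE gene Gm19426 at 991 bases and Ypel4 at 2460 bases. mir-301a lies on chromosome 11 (87113004 to 87113089, plus strand) in an intron of Ska2, a gene of chromosome attachment to the mitotic spindle. mir-130b (17124061 to 17124142) and mir-301b (17124400 to 17124496) lie 258 bases apart on the minus strand of chromosome 16, both in an intron of 2610318N02Rik. These positions are those of RefSeq, since the labels name no build for the counts.

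Libraries held 4884058 to 24253236 counts, and those of 30 months were the shallowest on average. Hairpins of red cells (mir-451a, mir-144, mir-486a and mir-486b) summed to between 582200 and 721600 CPM (counts scaled to a common library size, here by library totals), although mir-486a and mir-486b may share reads. The liver microRNA mir-122 stayed at or below 1.185 CPM, and of the muscle hairpins mir-206 was at 0 in every library while the 5 muscle hairpins together ran from 7.371 to 203.7 CPM. By rank correlation over the 152 tested hairpins with a mean of at least 10 CPM (from here on scaled by trimmed mean of M-values, TMM), 24 months replicate 2 and 30 months replicate 2 were least like the other libraries, at a median of 0.948 and 0.951 against 0.961 to 0.986. Results that rest on them are given with and without them. Sequencing lanes 3 to 8, read from the column names, were spread unevenly over the ages, and lane 3 held no library of 2 or 30 months.

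No member passed a test for a change in level with age. mir-130a had its highest mean at 24 months and mir-301a its lowest at 30 months, but the ranges of any 2 ages overlapped for every member, in all 10 pairs of ages. Groups that did not overlap with 2 months were found for 3.25% of tested hairpins at 9 months, 2.37% at 15, 10.4% at 24 and 10.7% at 30 months. By the quasi-likelihood test of edgeR over all tested hairpins, 0 of the 4 members passed an adjusted p of 0.05 in a test of any difference between the ages, where 7.99% of tested hairpins passed. It was likewise 0 of 4 at 9 against 2 months, with 2.07% of hairpins passing, and at 15 against 2 months, with 1.48%. None passed at 24 against 2 months, with 12.1%, at 30 against 2 months, with 14.2%, or for the linear trend, with 19.8%. By direction, 7.69% of hairpins were higher and 4.44% lower at 24 months, 9.17% and 5.03% at 30 months, and 10.7% and 9.17% along the trend. At an unadjusted p of 0.05 edgeR and DESeq2 gave 0 of 4 in each comparison, and limma-voom gave 1, mir-130a at 24 months (unadjusted p = 0.0405). In bulk blood, fewer cells of a type and less RNA per cell cannot be told apart, and members may come from several cell types.

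**Figure D1:**
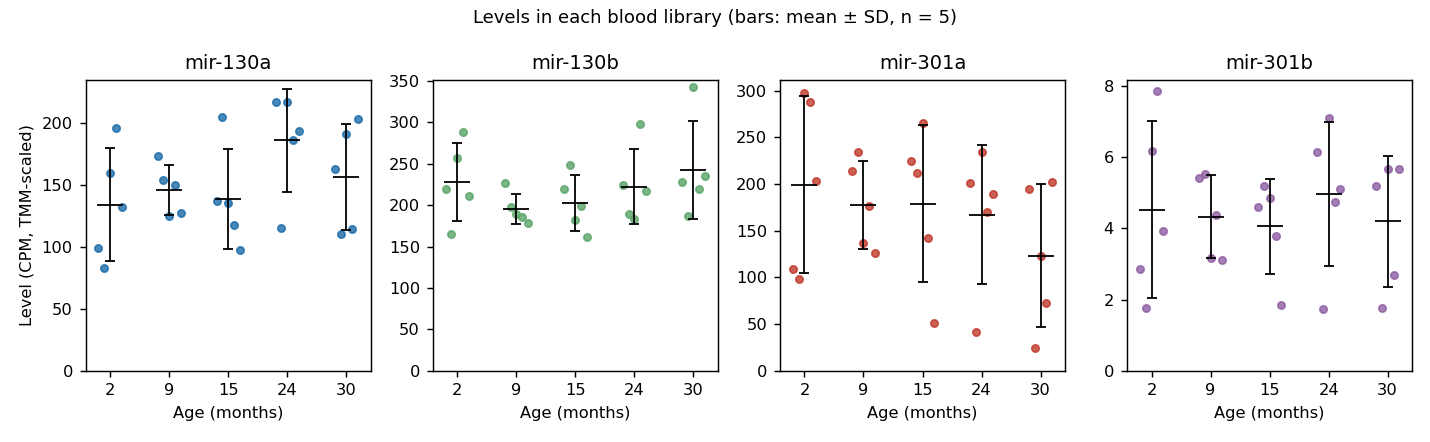
Level of each member in CPM (vertical axis, from 0) in the 25 libraries by age in months, 1 point per library, with the mean and SD of 5 libraries as bars. Ages overlap in every panel, and the points of mir-301a reach from 24.31 to 297.9 CPM.

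The levels averaged 218.1 ± 42.9 CPM for mir-130b, 169.3 ± 74.8 for mir-301a, 152.4 ± 40.6 for mir-130a and 4.409 ± 1.7 for mir-301b (SD, n = 25 libraries). mir-130b had the most counts in 20 libraries and mir-301a in 5. The upper 3 levels overlapped between libraries, while the highest value of mir-301b, 7.863 CPM, was below the lowest of any other member, 24.31. Divided by hairpin length, 64 to 97 bases, mir-130a averaged 2.38 CPM per base and mir-301a 1.97. That order reverses through hairpin length alone, while the mature strands printed above have 22 or 23 bases. Small RNA kits capture sequences unequally, so an order of levels between hairpins may not be that in the cells.

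mir-130a, the member known from progenitors and megakaryocytes, stood at 98.94, 83.18, 159.6, 196.3 and 132.7 CPM in replicates 1 to 5 of 2 months. At 24 months its levels were 217.5, 115.6, 217.7, 186.9 and 193.5 CPM, and at 30 months 162.8, 110.3, 191.6, 114.9 and 203.4 CPM. At 24 months 4 libraries stood between 186.9 and 217.7 CPM, 2 of them above the highest 2-month library, and replicate 2 stood below the other 4. The means were 134.1 ± 45.7 CPM at 2 months, 146.4 ± 20.2 at 9, 138.6 ± 40.4 at 15, 186.3 ± 41.9 at 24 and 156.6 ± 42.8 at 30 months (n = 5, SD). The log2 change of mir-130a was 0.47 at 24 against 2 months (SE 0.23, 95% interval −0.01 to 0.95, edgeR adjusted p = 0.206) and 0.22 at 30 against 2 months (SE 0.23, interval −0.26 to 0.70, adjusted p = 0.589). Without the 2 least similar libraries these log2 changes were 0.64 (adjusted p = 0.0649) and 0.36 (adjusted p = 0.334). The trend of mir-130a with age came to 0.12 log2 units every 10 months (SE 0.07) and did not pass (adjusted p = 0.256).

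mir-130b, which neighbours mir-301b, had the smallest spread within an age as an average over the 5 ages. Its lowest, median and highest levels were 164.7, 219.4 and 287.8 CPM at 2 months and 186.8, 227.8 and 342.4 CPM at 30 months. Its means ran from 195.4 ± 18.6 CPM at 9 months to 242.5 ± 58.9 CPM at 30 months (n = 5, SD), with 228.0 ± 46.8 at 2 months between them. The log2 change of mir-130b at 30 against 2 months was 0.09 (SE 0.17, 95% interval −0.26 to 0.44, adjusted p = 0.779), and at 24 against 2 months −0.04 (SE 0.17, adjusted p = 0.924), a value above 0 with library totals, upper quartile factors or a filter of 10 CPM and without the 2 least similar libraries. With TMM scaling the interval at 30 months leaves out a change of 1.5-fold in either direction, for this member alone. By library totals the change was 0.355, and no interval is given on that scale.

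mir-301a, the Ska2 intron member, had the largest spread within an age in the family as an average over the 5 ages, though at 2 months mir-301b varied more (coefficient of variation 54.8% against 47.5%). In replicates 1 to 5 it stood at 109.5, 98.13, 297.9, 287.9 and 203.2 CPM at 2 months. At 24 months it stood at 201.1, 41.36, 234.3, 170.4 and 188.9 CPM, and at 30 months at 194.1, 24.31, 123.3, 72.96 and 202.0 CPM. The 30-month libraries thus spanned 8.31-fold, and 2 of them lay below each library of 2 months, while the other 3 lay within the 2-month range. At 15 months the levels were 224.3, 211.3, 265.5, 142.3 and 51.68 CPM, and at 9 months they ran from 126.1 to 234.1 CPM. The means, lowest at 30 months without passing a test, were 199.3 ± 94.7 CPM at 2 months, 177.6 ± 46.9 at 9, 179.0 ± 83.9 at 15, 167.2 ± 74.1 at 24 and 123.3 ± 76.7 at 30 months (n = 5, SD). The log2 change of mir-301a at 30 against 2 months was −0.69 (SE 0.48, 95% interval −1.68 to 0.30, adjusted p = 0.370). Without 30 months replicate 2 it was −0.37, and without both least similar libraries −0.39 (adjusted p = 0.583). Among lanes that held both ages, each of the 5 libraries of 30 months was below the 2-month library of its lane for mir-301a, by −0.43 to −3.57 log2 units. These were 4 lanes, with 2 old libraries set against the same young one. The share of all tested hairpins with 1 direction within lanes was not computed. With lane in the fit the change of mir-301a was −0.81 and did not pass (edgeR adjusted p = 0.385).

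mir-301b, the partner of mir-130b, was scarce. Its counts ran from 19 to 180 per library, and the count of 19, in 30 months replicate 2, has an exact Poisson 95% interval of 11.4 to 29.7 counts, which covers counting error only. Its means were 4.519 ± 2.48 CPM at 2 months, 4.318 ± 1.16 at 9, 4.051 ± 1.33 at 15, 4.963 ± 2.02 at 24 and 4.195 ± 1.84 at 30 months (n = 5, SD). The log2 change of mir-301b at 30 against 2 months was −0.12 (SE 0.39, 95% interval −0.92 to 0.67, adjusted p = 0.882), which turns to 0.13 with library totals and to 0.12 without the 2 least similar libraries. An interval this wide leaves room for changes of over 1.5-fold in either direction.

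**Figure D2:**
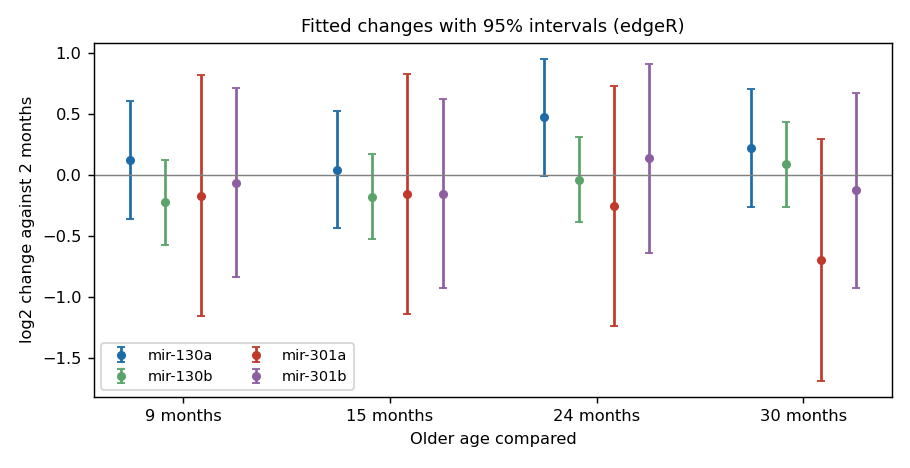
Fitted log2 change of each member at 4 older ages against 2 months (vertical axis), with 95% intervals from the edgeR fit of 25 libraries. Every interval includes 0, and those of mir-301a and mir-301b are wider than those of mir-130a and mir-130b.

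The spread between libraries of an age was unequal in the family. With 1 library per mouse, differences between animals and between library preparations cannot be told apart. The biological coefficient of variation, the variation between replicates beyond counting error, was 20.7% for mir-130b, 27.1% for mir-130a, 40.6% for mir-301b and 52.0% for mir-301a, against a median of 21.6% over tested hairpins, and that of mir-301a exceeded 97.0% of them. On the log2 scale the SD within an age averaged 0.92 for mir-301a, and 5 of 152 hairpins of at least 10 CPM had a larger one, where their median was 0.28. Without the 2 least similar libraries the SD of mir-301a was 0.65, and 6 of the 152 had a larger one. For mir-130b the SD was 0.26, and 78 of the 152 had a larger one. All comparisons of 2 ages share the 2-month libraries, so their values for a member are not independent of each other. With library totals in place of TMM the median change of all tested hairpins at 24 against 2 months moved to 0.36, and at 30 against 2 months to 0.20. On that scale mir-130a stood at 0.85 and 0.48, mir-130b at 0.33 and 0.36, mir-301a at 0.15 and −0.45, and mir-301b at 0.54 and 0.13 at these ages, with none past the threshold.

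Ratios of members within a library do not depend on how libraries are scaled, and 6 pairs were tested for a difference between ages. The planned comparison was 30 against 2 months, where no pair passed the threshold. At 24 against 2 months, the alternative, mir-301a was lower relative to mir-130a by a test adjusted over the 6 pairs at that age alone. No adjustment over both ages was made, so the adjusted p at 24 months does not cover the choice of age. The count of mir-130a divided by that of mir-301a was 0.904, 0.848, 0.536, 0.682 and 0.653 in replicates 1 to 5 of 2 months. At 24 months it was 1.08, 2.80, 0.929, 1.10 and 1.02, so that each 24-month library lay above each 2-month library. Among levels of single hairpins 10.4% did not overlap between these ages, and the share among other ratios was not computed. At 30 months it was 0.839, 4.54, 1.55, 1.57 and 1.01, with 4 of 5 libraries above the 2-month range and replicate 1 within it. At 9 months the ratio ran from 0.660 to 1.01 and at 15 months from 0.510 to 1.89, both overlapping 2 months.

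On the log2 scale the ratio of mir-130a to mir-301a averaged −0.49 ± 0.30 at 2 months, 0.33 ± 0.65 at 24 and 0.65 ± 0.94 at 30 months (n = 5, SD). At 30 against 2 months the difference was 1.14, or 2.20-fold, which missed the threshold after adjustment over 6 pairs (exact permutation test, two-sided, p = 0.0238, adjusted p = 0.0714). Without 30 months replicate 2 the log2 difference at 30 months was 0.75 (exact permutation adjusted p = 0.119). At 24 against 2 months, a comparison planned as an alternative, it was 0.82, or 1.77-fold (exact permutation p = 0.00794, the smallest that 5 against 5 can give, adjusted p = 0.0476). That call held in 7 of 10 analyses that left out 1 library. It ended without 24 months replicate 2, where the difference was 0.53, and without 2 months replicate 2 or replicate 5, where it was 0.88 and 0.79 (exact permutation adjusted p = 0.0714 each). Within lanes, 4 of 4 libraries of 24 months and 5 of 5 of 30 months were above the 2-month library of their lane. They were so by 0.27 to 2.10 and by 0.65 to 2.73 log2 units. The count at 24 months had to follow, since each 24-month library lay above each 2-month library, and it adds no support. At 30 months 4 of 5 libraries lay above each 2-month library, so only replicate 1 could have gone either way. The share of other ratios with such counts was not computed. The 5 libraries of 30 months lay in 4 lanes, and the 2 in lane 6 share their 2-month library, replicate 3, which had the lowest ratio of its age.

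The ratio of mir-301a to mir-301b did not pass in the planned comparison at 30 months. It was also lower at 24 than at 2 months, the alternative, again by a test adjusted within that age alone. Counts of mir-301b per 100 of mir-301a averaged 2.23 ± 0.414 at 2 months, 2.43 ± 0.0923 at 9, 2.51 ± 0.687 at 15, 3.15 ± 0.610 at 24 and 4.20 ± 1.85 at 30 months (n = 5, SD). The highest value, 7.20, was that of 30 months replicate 2, the library with the lowest level of mir-301a. The 9-month values, 2.31 to 2.53, lay within the range of 2 months, 1.81 to 2.73. In log2 units the ratio of mir-301a to mir-301b differed by −0.84 at 30 against 2 months (exact permutation p = 0.0159, adjusted p = 0.0714), and by −0.61 without 30 months replicate 2 (exact permutation adjusted p = 0.119). It differed by −0.50 at 24 against 2 months (exact permutation p = 0.0159, adjusted p = 0.0476). The call at 24 months held in 4 of 10 analyses that left out 1 library. It ended without 24 months replicate 1, 2, 3 or 4 and without 2 months replicate 2 or 5 (exact permutation adjusted p from 0.0714 to 0.119), with differences of −0.54 to −0.39. Within lanes it was lower in 4 of 4 libraries of 24 months and 5 of 5 of 30 months, of which 2 share a 2-month library. Most of these directions were fixed beforehand and add no support. The lowest 2-month log2 ratio was 5.19, and 4 of 5 libraries of 30 months lay below each 2-month library. At 24 months the log2 ratios ran from 4.55 to 5.20, so only a library above 5.19 could have gone either way. No share over other ratios was computed for such counts.

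For the other 4 pairs no difference passed at either age. The ratio of mir-130b to mir-301b, hairpins of 1 locus, averaged 5.81 ± 0.56 log2 units at 2 months and 5.95 ± 0.57 at 30 months (n = 5, SD), a difference of 0.13 (exact permutation p = 0.706). That of mir-130a to mir-130b differed by 0.16 at 30 months (exact permutation p = 0.381) and by 0.54 at 24 months (exact permutation p = 0.0635, adjusted p = 0.127). That of mir-130b to mir-301a differed by 0.97 at 30 months (exact permutation p = 0.111), with 3 of 5 libraries beyond the 2-month range.

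Of the hairpins used as markers of blood cells, some were called at these ages, where 12.1% of all tested hairpins passed at 24 months and 14.2% at 30 months. Of 2 hairpins of neutrophils and monocytes 1 was higher at 24 and at 30 months, mir-223, which averaged 58.2 ± 2.85 CPM at 2 and 158 ± 44.1 at 30 months (n = 5, SD). Of 4 red cell hairpins 2 were lower at 24 months, mir-144 and mir-451a, and 1 at 30 months, mir-144. Their sum, by library totals, ran from 664100 to 711900 CPM at 2 months, from 597200 to 721100 at 24 and from 616000 to 705700 at 30 months. Of 3 lymphocyte hairpins 0 passed by edgeR at either age. The sum of neutrophil and monocyte hairpins, also by library totals, ran from 5799 to 7496 CPM at 2 months. It ran from 5528 to 14270 CPM at 24 and from 7080 to 10440 at 30 months. Both sums overlapped between the ages, but each is set by its most abundant hairpins. Over all libraries (TMM) mir-142a averaged 8180 CPM and mir-223 109. mir-486a and mir-486b averaged 296000 CPM each, against 807 for mir-144. The overlap thus does not describe mir-223 or mir-144. The part of blood cell types, and of the lower depth at 30 months, in the ratios of members was not tested.

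**Figure D3:**
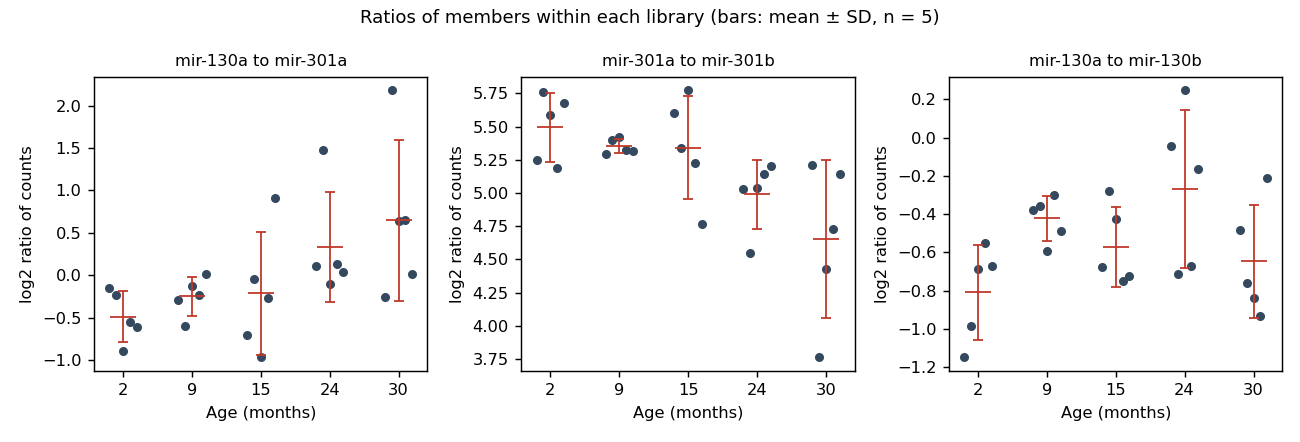
Log2 ratio of counts within each library (vertical axis) by age in months for 3 pairs of members, 1 point per library, with mean and SD of 5 libraries as bars. For mir-130a to mir-301a each 24-month point lies above each 2-month point, and for mir-301a to mir-301b the lowest point is that of 30 months replicate 2.

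Across the 25 libraries mir-301b varied with mir-301a and mir-130a, which lie on other chromosomes. Pearson's r of mir-301b was 0.88 with mir-301a (Spearman's rho 0.81, adjusted permutation p = 3e-05 for r) and 0.88 with mir-130a (rho 0.90, adjusted p = 3e-05), both resting on the smallest p that 100000 resamples can give. With mir-130b, 258 bases away, r was 0.59 (rho 0.58, adjusted permutation p = 0.00216). Whether these values of r differ from each other was not tested. Without the 2 libraries farthest from the median of the other hairpin, r of mir-301b was 0.86 with mir-301a, 0.83 with mir-130a and 0.65 with mir-130b. As deviations from the age means these were 0.94, 0.94 and 0.67, and as deviations from the lane means 0.89, 0.87 and 0.63. Without the 2 least similar libraries they were 0.86, 0.90 and 0.58. Scaled by library totals in place of TMM, r was 0.90 with mir-301a, 0.91 with mir-130a and 0.78 with mir-130b. On that scale rho was 0.86, 0.95 and 0.85, so the gap between mir-301a and mir-130b depended on the scaling. Members measured in 1 library share its depth and scaling, and reads of mir-301a counted for mir-301b would also raise their r, which was not tested.

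**Figure D4:**
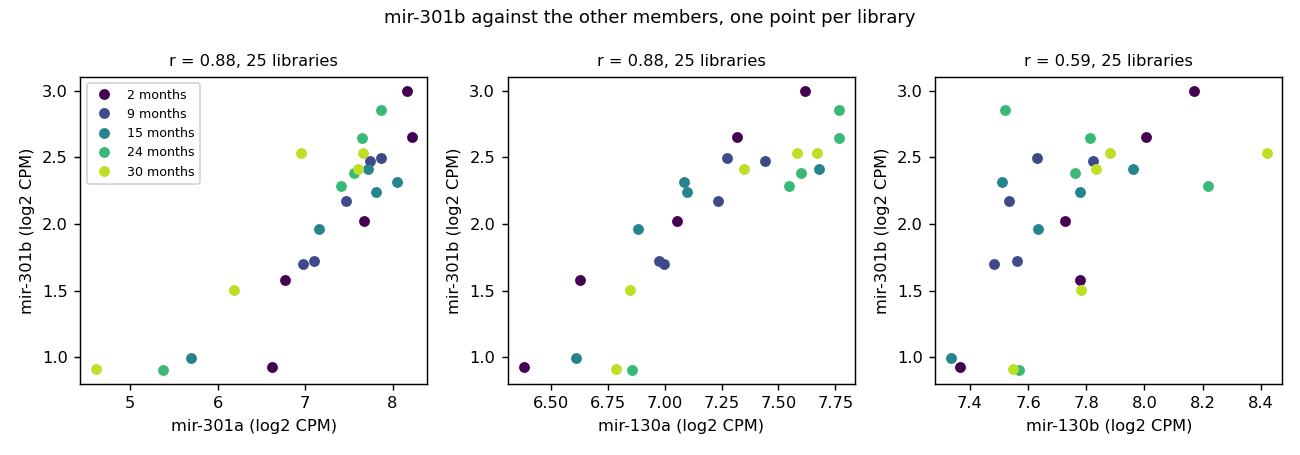
Log2 CPM of mir-301b (vertical axis) against that of mir-301a, mir-130a and mir-130b (horizontal axes), 1 point per library, coloured by age. Points lie closer to a line for mir-301a and mir-130a (r = 0.88 each) than for mir-130b (r = 0.59), and libraries of 2, 15, 24 and 30 months stand at the low end.

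Of the other pairs, mir-130a and mir-130b had r = 0.62 (rho 0.58, adjusted permutation p = 0.00141, and r = 0.50 without the 2 farthest libraries), and mir-130a and mir-301a had r = 0.64 (rho 0.66, adjusted permutation p = 6.4e-04, and r = 0.60 without them). mir-130b and mir-301a, with r = 0.37 (rho 0.32, adjusted permutation p = 0.0671), did not pass over all libraries, but did as deviations from the age means (r = 0.55, adjusted permutation p = 0.00469). Without the 2 least similar libraries its r was 0.33 (adjusted permutation p = 0.126). Few other hairpins were as like mir-301b as mir-301a and mir-130a were. Of 151 other hairpins of at least 10 CPM, 6 had a higher r with mir-301b than mir-301a had, 7 a higher one than mir-130a, and 42 a higher one than mir-130b, where the median r over those hairpins was −0.05. From the side of mir-130a, 1 of 151 had a higher r than mir-301b, 13 of 150 a higher one than mir-301a and 18 of 150 a higher one than mir-130b, with a median of 0.05. From the side of mir-301a, 13 of 151 had a higher r than mir-301b, 40 of 150 a higher one than mir-130a and 51 of 150 a higher one than mir-130b, with a median of −0.14. For mir-130b, 9 of 150 had a higher r than mir-130a, 12 of 151 than mir-301b and 39 of 150 than mir-301a, with a median of 0.06.

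The hairpins whose levels over the 25 libraries were most like those of a member, among 149 others of at least 10 CPM, were taken as the top 3 for each. For mir-130a they were mir-27b (r = 0.89), mir-181d (0.85) and mir-21a (0.72). For mir-130b they were mir-27b (0.74), mir-378a (0.74) and mir-322 (0.73). For mir-301a they were mir-15a (r = 0.96), let-7i (0.95) and mir-17 (0.94), and for mir-301b mir-15a (0.93), mir-21a (0.92) and mir-872 (0.90). mir-27b was thus first for both mir-130 hairpins and mir-15a for both mir-301 hairpins. With age means removed, r was 0.89 for mir-130a with mir-27b and 0.97 for mir-301a with mir-15a. These values describe 25 libraries that share preparation and depth differences, and carry no test.

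Other mouse microRNAs with the same seed had no counts in these libraries. Their sequences are shown because they carry the family's seed on other hairpins.
miR-130c: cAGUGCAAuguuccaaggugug
miR-721: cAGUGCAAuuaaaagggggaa
miR-6341: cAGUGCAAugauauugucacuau
miR-6389: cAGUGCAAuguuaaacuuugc
mir-130c, mir-721, mir-6341 and mir-6389 had 0 counts in 25 libraries, which allows up to 0.614 CPM in the smallest library at a floor of 3 counts. mir-454, the remaining name on the list of relatives, was absent from the hairpins counted. The mir-148 and mir-152 group has a seed that sits 1 base earlier on the same letters.
miR-148a-3p: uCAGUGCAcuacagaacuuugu
miR-148b-3p: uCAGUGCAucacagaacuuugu
Of its 3 hairpins, all tested, 0 passed in any of the 6 comparisons by edgeR, where 1.48% to 19.8% of all tested hairpins passed. mir-148a, a plasma cell and liver microRNA, averaged 985 ± 243 CPM in the youngest group and 1020 ± 128 in the oldest (n = 5, SD), a log2 change of 0.05 (SE 0.16, adjusted p = 0.874). The log2 change was −0.07 for mir-148b (SE 0.12, adjusted p = 0.757) and 0.41 for mir-152 (SE 0.39, adjusted p = 0.568), which averaged at most 1.04 CPM at any age.

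MicroRNAs known to decline beside mir-130a as megakaryocytes mature (mir-10a, mir-10b, mir-126a, mir-17, mir-20a and mir-106a) did not share one direction. All 6 were tested. At 30 against 2 months 1 was higher and 1 lower, where 9.17% of all tested hairpins were higher and 5.03% lower. The median log2 change of the 6 was −0.37 against −0.04 over all tested hairpins. mir-10a, of a Hox cluster, rose by 1.21 log2 units (SE 0.18, adjusted p = 4.9e-05) and mir-126a, of endothelium and platelets, fell by 1.35 log2 units (SE 0.34, adjusted p = 0.0101). For the linear trend 1 was higher and 2 lower, mir-126a and mir-20a, where 10.7% of all tested hairpins were higher and 9.17% lower. The 4 platelet and endothelial hairpins used as markers (mir-126a, mir-199a-1, mir-199a-2 and mir-199b) summed to 11.19 to 15.79 CPM of library totals at 2 months and 3.258 to 9.492 CPM at 30 months, with 2 of 4 lower at 30 months, mir-126a and mir-199a-1, although mir-199a-1 and mir-199a-2 may share reads. Their part in the levels of the family was not tested.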

How the data were processed

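Small RNA of blood from 25 mice was sequenced from TruSeq libraries (labels' protocols). The authors deposited raw counts per microRNA hairpin, not normalised, and no molecular identifiers are named. Per the submitters' processing notes, the tools were bcl2fastq 1.8.4, Trimmomatic 0.36 and, at version 1.3.1-9, SAMtools, with no roles given. Aligner, counter, microRNA release, build and strand setting: not given in the sources used here. For 50 same-age pairs of libraries, chi-square divided by its degrees of freedom was at least 124.9, and none was treated as a repeat. Replicates are numbered in deposit order and pair no animals. Totals ran from 4884058 to 24253236 counts, and at a floor of 3 counts a hairpin at 0 may reach 0.614 CPM in the smallest library. That floor and the Poisson interval cover counting error only.

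Counts were tested with edgeR 4.0.16 in R 4.3.3 (TMM factors, default filter by age, robust quasi-likelihood F test), 1 fit over 25 libraries, Benjamini-Hochberg adjustment over 338 hairpins and a threshold of 0.05. The trend used age in months. The fit was tested on simulated data. DESeq2 1.42.0 and limma 3.58.1 were alternatives. Correlations used log2 CPM with a prior count of 2. Ratios used log2 of counts plus 0.5, with exact permutation tests and adjustment over 6 pairs. Named hairpins were the 4 members, the 3 most alike to each, and the listed relatives, megakaryocyte hairpins and markers. Members and lists were chosen with earlier results of these data known. Sequences and positions come from RefSeq tables of GRCm38.p6 (4 of 4 members matched) and genes from GENCODE vM21.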

Additional observations from a re-analysis of the deposited data

Results flagged for a closer look

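In 50 groups of 5 libraries (4 members and 6 ratios at 5 ages), 2 had a library far from the others by a gap test at the 95% level, where chance flags about 1 in 20 groups. Both concern 24 months replicate 2. Its log2 ratio of mir-130a to mir-301a was 1.48, where the nearest of the other 24-month libraries stood at 0.134. Its log2 ratio of mir-301a to mir-301b was 4.55, where the nearest stood at 5.03. Both ratios contain mir-301a, so these are not independent.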

How the results depend on the processing

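The count of 0 members past the threshold was the same in all 161 alternative fits (38 settings of scaling, filter, tool, lane, thinning or libraries left out), in which mir-301b was not tested under the filter of 10 CPM. Counts over all hairpins moved more. Without a filter they were 17 for any age, 24 at 24 months, 15 at 30 months and 39 for the trend. With library totals they were 44 for any age, 3 at 15 months and 72 at 24 months (69 higher and 3 lower, against 26 and 15), and the splits were 51 and 6 at 30 months (against 31 and 17) and 80 and 9 for the trend (against 36 and 31). With upper quartile factors they were 4 at 9 months (1 higher and 3 lower, against 4 and 3) and 24 at 24 months (21 and 3), and the trend split 38 and 18. With the filter of 10 CPM they were 3 at 15 months, 27 at 24 months and 38 for the trend. With lane in the fit they were 16 for any age, 4 at 9 months and 3 at 15 months. With thinned libraries they were 15 for any age, 3 at 15 months and 26 at 24 months. limma-voom gave 3 at 15 months. The compared ages alone gave 2 at 15 months and 30 at 30 months. The trend without the 2 months group gave 9. Leaving out each library gave 14 to 33 for any age, 3 to 7 at 9 months, 3 to 4 at 15 months, 23 to 36 at 24 months, 32 to 49 at 30 months and 43 to 71 for the trend.

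Values of single members changed sign in 47 alternatives, none of them past the threshold, and kept sign and side of the threshold, or level, in 671. For mir-130b at 24 months the log2 change was 0.328 with library totals, 0.033 with upper quartile factors, 0.076 with the filter of 10 CPM and 0.050 without the 2 least similar libraries, an alternative chosen after seeing the data, and −0.155 to 0.087 with each library left out. For mir-301a at 24 months it was 0.146 with library totals, 0.030 without the 2 least similar libraries and −0.380 to 0.067 with each library left out. For mir-301b it was 0.004 at 15 months, 0.128 at 30 months and 0.084 at 9 months with library totals, 0.088 at 9 months with limma-voom and 0.122 at 30 months without the 2 least similar libraries. Its trend per 10 months was −0.003 with RLE size factors, −0.003 without a filter and −0.002 with DESeq2. For mir-130a at 15 months it was −0.008 with lane in the fit. With each library left out, mir-130a at 15 months ran from −0.091 to 0.249, mir-130b at 30 months from −0.018 to 0.237, mir-301a from −0.312 to 0.040 at 9 months and −0.281 to 0.115 at 15 months, and mir-301b from −0.225 to 0.239 at 9, −0.289 to 0.175 at 15, −0.003 to 0.465 at 24 and −0.266 to 0.224 at 30 months, with a trend from −0.029 to 0.099.

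Ratio tests were adjusted within each older age and not over both. At 24 in place of 30 months the ratio of mir-130a to mir-301a differed by 0.822 and that of mir-301a to mir-301b by −0.501, both then past the threshold, and that of mir-130b to mir-301b by −0.219. With each library left out at 30 months these ran from 0.752 to 1.360, from −0.978 to −0.614 and from −0.054 to 0.310. The first of them passed only without 30 months replicate 1 (adjusted p = 0.0238), and so did the second. The correlation of mir-130b and mir-301a passed with library totals (0.532), without the 2 farthest libraries (0.513), within ages (0.550) and within lanes (0.398, added after seeing the data), but not without the 2 least similar libraries (0.33), and within lanes rho did not pass (0.30, adjusted permutation p = 0.141). The cause of these shifts was not tested. No paired analysis was possible because the replicate numbers only follow deposit order and pair no animals. Matching by sequencing lane is a separate comparison, given beside the results. Depth limits mir-301b most, with 19 to 180 counts per library.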
